A study of Mus musculus with 12 samples.

Results

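Endothelial and vessel genes were followed as a set of 32 names fixed by symbol, of which 31 matched a mouse gene among the 54446 Ensembl identifiers counted and 1, Roboo, matched none. All 31 held enough counts to be tested, with 17 to 1340 counts per tumour. In a grafted tumour the vessels grow in from the host, and both host and tumour cells here are of the mouse. The data came from 12 tumours of Sq-1979, a mouse line that the labels give as head and neck squamous cell carcinoma. Per the labels, 6000000 cells in Matrigel were placed under the skin of the back of male C3H/HeN mice aged 6 weeks. Mice then received vehicle control, a rat anti-PD1 antibody, SN-38, or anti-PD1 and SN-38 together (the combination), with 3 tumours in each of the 4 groups. Anti-PD1 blocks an inhibitory receptor of T cells, and SN-38 is the active metabolite of the topoisomerase I inhibitor irinotecan. No label gives a dose, a schedule or a collection day. Nor do the labels say that each tumour came from a separate mouse, and p-values reflect only how far these samples spread, which may be technical.

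Endothelial cells line blood and lymphatic vessels. Tumours draw in new vessels with VEGF-A, which acts on the receptors encoded by Kdr and Flt1. The angiopoietin receptor Tek and the orphan receptor Tie1 govern vessel stability. Cadherin and claudin junctions hold the cells together, and ETS factors such as Erg and SoxF factors keep their identity. At the front of a sprout, tip cells switch on genes such as Esm1, Apln and Angpt2.

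Total counts ran from 21088288 to 28512141 per tumour. The squamous label was checked on Krt5, a basal keratin, which stood at 4411 to 8113 CPM, where CPM stands for counts scaled to library size, with TMM factors. Each of the 6 defining endothelial markers, Pecam1, Cdh5, Kdr, Tek, Tie1 and Erg, had at least 43 counts in every tumour. Connective tissue content was uneven, with summed CPM of 8 fibroblast markers from 6390 to 65507. In bulk tissue, fewer endothelial cells and less RNA per endothelial cell cannot be told apart.

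Levels can be compared between genes only per length, so FPKM was computed as CPM per kilobase of annotated exon. Over the 12 tumours the highest member was Plvap, which forms the diaphragms of fenestrated capillaries, at 17.2 ± 2.61 FPKM (mean ± SD, n = 12). It was followed by Ecscr, an endothelial surface regulator of VEGF receptor signalling, at 11.7 ± 2.47, the TGF-beta co-receptor Eng at 9.96 ± 1.45, VE-cadherin (Cdh5) at 7.04 ± 1.33 and Pecam1 at 5.30 ± 0.761 FPKM. At the other end stood the transcription factors Erg at 0.69 ± 0.126, Sox7 at 0.435 ± 0.095 and Sox17 at 0.231 ± 0.0775 FPKM, with the receptor Tek among them at 0.616 ± 0.161 FPKM. In all 30 neighbouring pairs of this order the ranges over tumours overlapped, so the order is firm only between genes far apart in it.

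**Figure D1:**
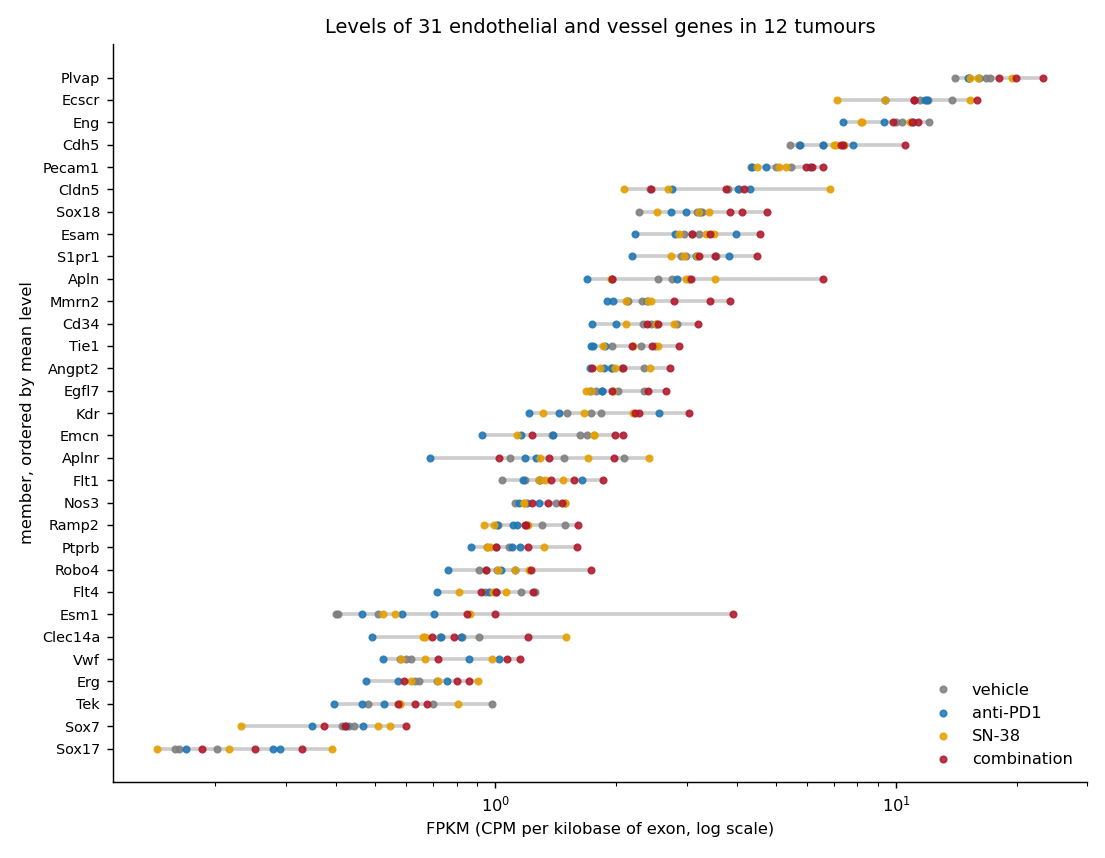
FPKM of the 31 members (rows, highest mean on top) on a log axis; each point is a tumour, coloured by group, and grey bars span lowest to highest. Plvap lies highest at a mean of 17.2 FPKM, Sox17 lowest at 0.231 FPKM, and Esm1 has 1 point far from the rest, combination tumour 2.

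Spread between tumours differed from gene to gene. The highest tumour held less than 2 times the CPM of the lowest for 14 of 31 members, with Nos3, endothelial nitric oxide synthase, the steadiest at 4.62 to 6.16 CPM. The ratio exceeded 3 for 5 members. These were Esm1 (9.81), the apelin ligand gene Apln (3.89), the apelin receptor gene Aplnr (3.502), the tight junction gene Cldn5 (3.27) and the lectin-like receptor gene Clec14a (3.05). Cldn5 was both highest and lowest in SN-38 tumours, at 9.69 CPM in tumour 1 and 2.96 CPM in tumour 2.

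As a set, vessel genes stood highest in tumours given both agents. The member score, the mean log2 CPM of the 31 genes, was 2.81, 3.001 and 3.01 in the vehicle tumours, 2.81, 2.73 and 2.997 in those given anti-PD1, 3.06, 3.03 and 2.84 after SN-38 and 3.13, 3.40 and 3.11 after both. By this mean all 3 combination tumours lay above the other 9, whose scores overlapped between their groups. By the median of the members, combination tumour 3 at 3.06 lay below 4 of those 9, vehicle tumours 2 and 3 and SN-38 tumours 1 and 3, the highest of which stood at 3.27. By the mean of the 6 defining markers alone, combination tumour 1 at 3.44 lay below SN-38 tumour 2 at 3.54. Group means were 2.94 ± 0.11, 2.84 ± 0.14, 2.98 ± 0.12 and 3.21 ± 0.16 (SD, n = 3 each) in that order. Summed over members, the level was 319, 367 and 359.6 CPM with vehicle, 317, 299 and 377 CPM with anti-PD1, 371, 362 and 323 CPM with SN-38 and 401, 461 and 404 CPM with the combination. No test is given for the score, because its members were chosen with results of these data known.

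**Figure D2:**
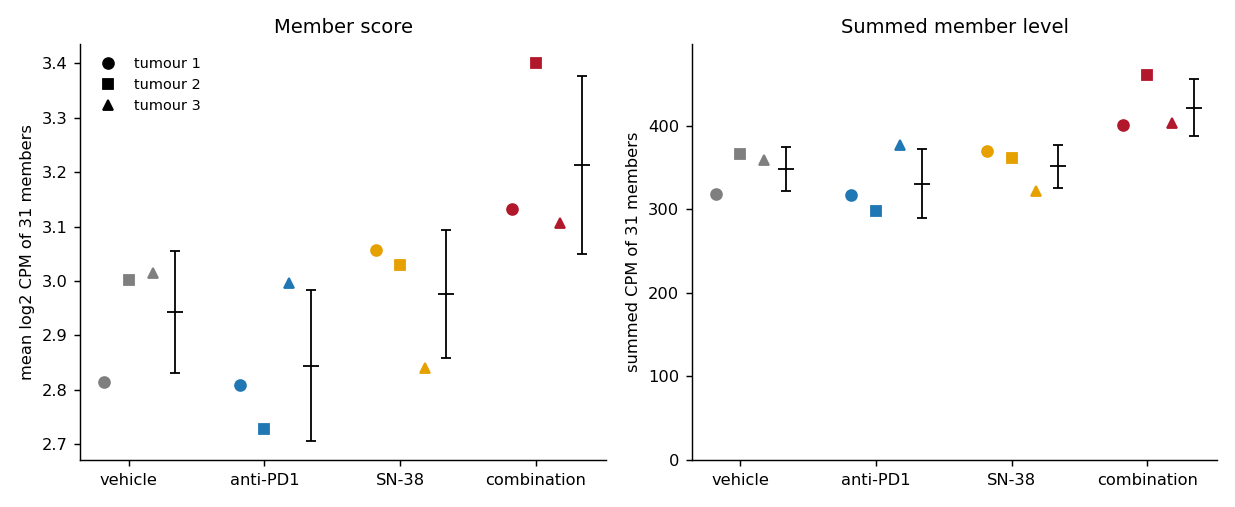
Left, mean log2 CPM of the 31 members, and right, their summed CPM, in each tumour by group, with the mean and SD of 3 tumours in black. The 3 combination tumours lie at 3.11 to 3.40 on the left axis, above the highest other tumour at 3.06.

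Taken singly, 11 of 31 members had their highest mean with the combination and their lowest with anti-PD1 alone. The combination had the highest mean CPM of the 4 groups for 25 of 31 members and the lowest for 0. Anti-PD1 alone had the lowest mean for 15 and the highest for 0. Shares of all genes by group mean were not computed. Counted by single tumours, the combination group held the highest value of 22 members (71.0%), beside 32.3% of all genes. It held the lowest value of 0 members, beside 32.9% of all genes. By tumour, combination tumour 2 held the highest value of 15 members, or 48.4%, while it held the highest value of 15.1% of all 16833 genes tested. The 3 anti-PD1 tumours together held the lowest value of 18 members (58.1%), against 19.8% of all genes. Tek, Flt4 and Eng were the 3 members with their highest mean in vehicle tumours, and Aplnr, Cldn5 and Clec14a had it with SN-38 alone.

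Against vehicle, 27 of 31 members had a higher mean with the combination, beside 51.6% of all genes, and the median log2 difference was 0.19 beside 0.0099 over all genes. With edgeR, 0 of 31 passed the adjusted threshold of 0.05, where 0% of all genes passed, and the smallest adjusted p of a member was 0.296. At an unadjusted p under 0.05, 8 members were higher (8.29% of all genes) and 0 lower (4.56% of all genes). These were Mmrn2, Esm1, Cdh5, Flt1, Plvap, Sox18, Vwf and Pecam1. Values of the groups did not overlap for 9 members, namely these 8 and Kdr, all higher with the combination; 11.7% of all genes lay apart in that direction and 11.8% in the other. DESeq2 called Mmrn2 and Esm1 (DESeq2 adjusted p = 0.028 for each, with 0.028 to 0.673 for each over all alternatives). It called 1.03% of the 16833 genes, and limma voom called 0 members and 0% of all genes. The count of 8 was 4 without vehicle tumour 1 and 5 without combination tumour 2. The median was 0.13 without combination tumour 2 and 0.31 without combination tumour 1.

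Against anti-PD1 alone, 30 of 31 members had a higher mean with the combination (50.3% of all genes), with a median of 0.32 beside 0.0012 over all genes. Cldn5 was the exception at -0.10 ± 0.42 SE. With edgeR 0 members passed, again with 0% of all genes called and a smallest adjusted p of 0.382, and 9 were higher at an unadjusted p under 0.05 (4.8% of all genes) and 0 lower (3.16%). Those 9 were Mmrn2, Esm1, Plvap, Tie1, Sox18, Emcn, Egfl7, Pecam1 and Cd34. For 8 members the groups did not overlap, all higher with the combination, as for 6.93% of all genes, with 5.3% apart in the other direction. DESeq2 called Mmrn2 (DESeq2 adjusted p = 0.0113, with 0.0113 to 1 over all alternatives). It called 0.451% of all genes, and limma voom called 0 members and 0% of all genes. The count of 9 was 4 if either anti-PD1 tumour 2 or combination tumour 2 was left out, and 5 with only these 2 groups in the fit. This comparison shares the combination tumours with the one against vehicle, so the 2 sets of values are not independent.

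For each agent alone the differences from vehicle were small and of mixed sign. With SN-38 alone 19 of 31 members had an edgeR log2 difference from vehicle above 0 (51.2% of all genes). The median was 0.032 beside 0.006 over all genes, and -0.043 without vehicle tumour 1. With 1 tumour left out, the count of 19 ran from 13 to 23. With edgeR 0 members passed (0.00594% of all genes), and 0 had an unadjusted p under 0.05, where 6.7% of all genes were higher and 3.34% lower by that rule. Cdh5, Esm1 and Robo4 were the 3 members above every vehicle tumour (11.1% of all genes), and 0 lay below every one (7.96%).

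With anti-PD1 alone 11 of 31 members had higher means than vehicle (51.6% of all genes) and 20 lower, with a median of -0.076 beside 0.0099; 0 passed with edgeR (0% of all genes). The count of 11 was 6 without vehicle tumour 1 or without anti-PD1 tumour 3, and 15 without anti-PD1 tumour 2. The median ran from -0.18 without anti-PD1 tumour 3 to -0.036 without anti-PD1 tumour 2. Tek, the angiopoietin receptor gene, was the 1 member at an unadjusted p under 0.05, lower at 2.18 ± 0.307 against 3.39 ± 1.19 CPM (-0.64 ± 0.27 SE, edgeR adjusted p = 0.844). By that rule 1.91% of all genes were lower and 3.7% higher. Tie1 was the 1 member with all anti-PD1 values below vehicle (9.2% of all genes), and 0 members had them above (7.99%). DESeq2 called 0 members for SN-38 alone (0.986% of all genes) and 0 for anti-PD1 alone (0.166%). With limma voom 0 members were called in both, beside 1 of all genes for SN-38 alone and 0 for anti-PD1 alone.

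Against SN-38 alone the combination had higher means for 27 of 31 members (48.3% of all genes), with a median of 0.23 beside -0.0092, and 0.10 without combination tumour 2. With edgeR, DESeq2 and limma voom 0 members passed (0% of all genes with edgeR and with limma voom, 0.297% with DESeq2). At an unadjusted p under 0.05, 5 members were higher (4.76% of all genes), namely Mmrn2, Esm1, Sox18, Pecam1 and Egfl7, and 0 lower (3.16%). The count was 1 without combination tumour 2 and 2 without SN-38 tumour 3. Groups did not overlap for 5 members, Kdr, Mmrn2, Pecam1, S1pr1 and Sox18, all higher with the combination (5.08% of all genes higher, 4.54% lower).

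**Figure D3:**
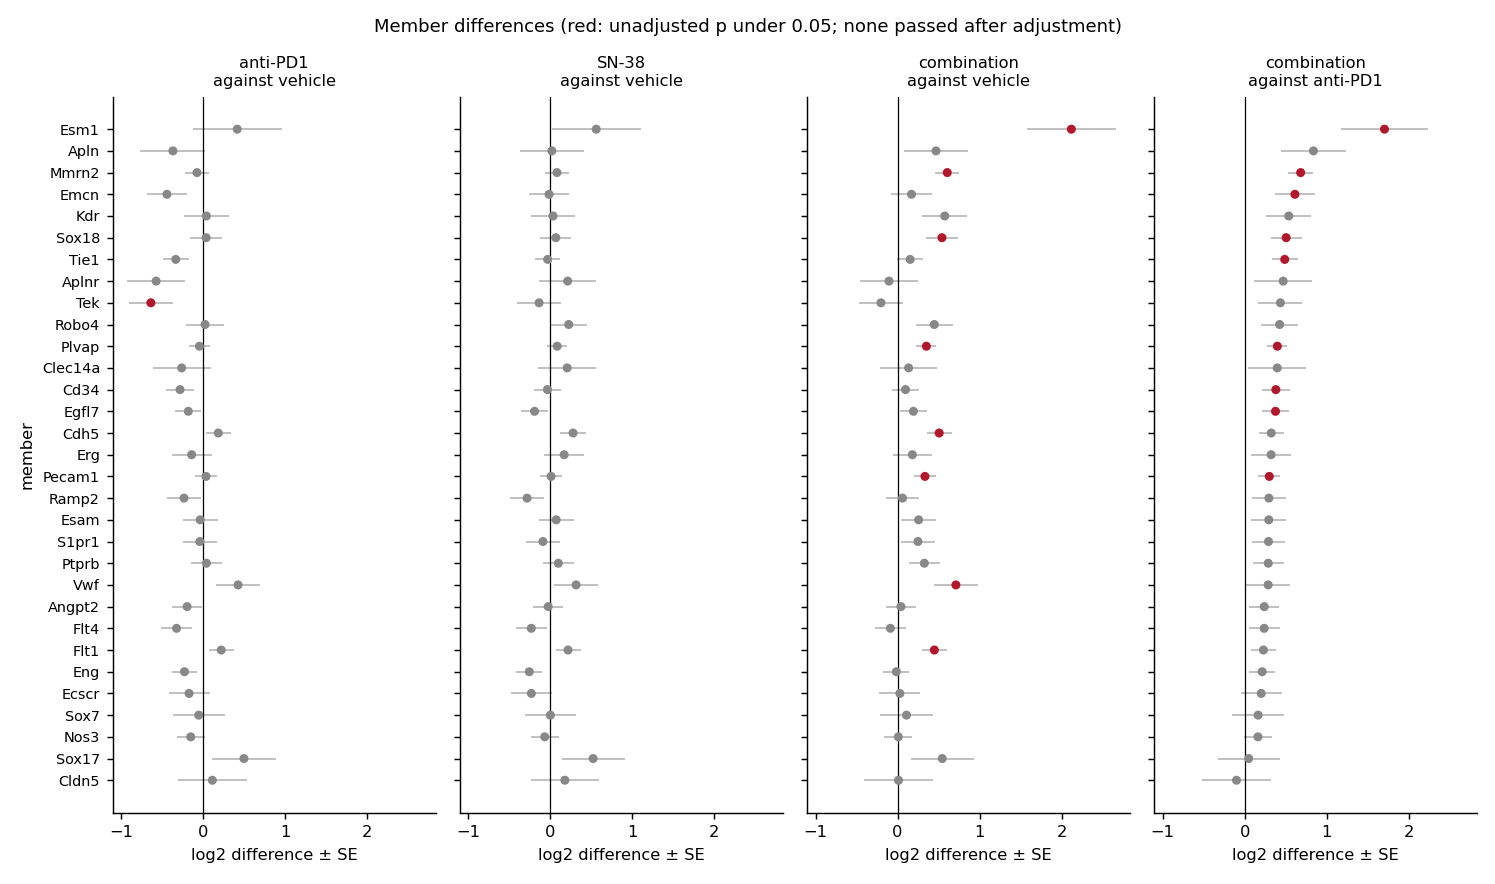
Log2 difference ± SE (edgeR) of each member in 4 comparisons, ordered by the combination against anti-PD1, with members at an unadjusted p under 0.05 in red. Points scatter around 0 for each agent alone and lie right of 0 for 27 and 30 of 31 members with the combination, Esm1 farthest.

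Averaged over antibody status, SN-38 went with higher means of 29 of 31 members (50.2% of all genes), with a median of 0.22 beside 0.00069. The 2 differences averaged here were unlike, with member medians of 0.032 for SN-38 alone against vehicle and 0.32 for the combination against anti-PD1. With edgeR (0% of all genes), DESeq2 (1.19%) and limma voom (0%), 0 members passed. At an unadjusted p under 0.05, 4 members were higher, beside 7.21% of all genes, and 0 were lower (3.27%). The smallest edgeR adjusted p was 0.286. The count of 4 became 8 when anti-PD1 tumour 3 was left out and 7 when combination tumour 3 was, and the median was 0.14 without SN-38 tumour 2 and 0.15 without combination tumour 2. Averaged over SN-38 status, the antibody went with a median of 0.056 beside -0.0027 and with 20 of 31 members higher (49.1% of all genes). Here 0 members passed with edgeR or limma voom (0% of all genes with each) or with DESeq2 (0.0832%). Esm1 was the 1 member at an unadjusted p under 0.05, higher (5.14% of all genes), and 0 were lower (1.53%). That count was 0 without anti-PD1 tumour 3 or without SN-38 tumour 2, up to 3 with another tumour left out, and 4 with scaling to total counts only. The interaction, the antibody difference with SN-38 minus that without it, was above 0 for 28 of 31 members (48.2% of all genes), with a median of 0.31 beside -0.014. With edgeR it passed for 0 members (smallest edgeR adjusted p = 0.614) and for 0% of all genes. Mmrn2, Egfl7 and Tie1 had an unadjusted p under 0.05 (3.4% of all genes), all above 0, while 4.22% of all genes lay below 0 by that rule. That count of 3 ran from 1 to 7 with any 1 tumour left out. DESeq2 (0.143% of all genes) and limma voom (0% of all genes) called 0 members. A difference between the antibody's values with and without SN-38 was therefore not detected for any single member, nor with edgeR for any other gene tested.

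Among junction and adhesion genes, Cdh5 encodes VE-cadherin, the cadherin of endothelial junctions. Cdh5 (ENSMUSG00000031871.9) lies on chromosome 8 at 104101625 to 104144511 of GRCm38, on the plus strand. It stood at 22.9, 27.6 and 24.0 CPM in vehicle tumours 1 to 3, 27.6, 24.2 and 32.8 CPM with anti-PD1, 29.4, 31.1 and 29.8 CPM with SN-38 and 30.7, 44.2 and 31.05 CPM with the combination. Every tumour given SN-38, alone or with the antibody, lay above every vehicle tumour, and combination tumour 2 lay far above the rest. The log2 difference from vehicle was 0.51 ± 0.15 SE with the combination (edgeR adjusted p = 0.311), and 0.31 without combination tumour 2.

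Pecam1, the adhesion molecule CD31 of endothelium, platelets and leukocytes, stood at 27.0, 31.2 and 34.1 CPM in vehicle tumours 1 to 3, 29.5, 27.1 and 37.9 CPM with anti-PD1, 33.1, 31.8 and 28.0 CPM with SN-38 and 37.1, 40.9 and 38.5 CPM with the combination. The 3 combination tumours lay above every vehicle and SN-38 tumour, and anti-PD1 tumour 3 lay among them. Its difference from vehicle was 0.33 ± 0.13 SE (edgeR adjusted p = 0.358). The sialomucin genes Emcn and Cd34 and the adhesion gene Esam differed from anti-PD1 alone by 0.61 ± 0.25 SE, 0.38 ± 0.17 SE and 0.29 ± 0.21 SE, and from vehicle by 0.17 ± 0.25 SE, 0.10 ± 0.17 SE and 0.26 ± 0.21 SE.

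Of the 3 VEGF receptor genes, Flt1 and Kdr stood higher with the combination than in any vehicle tumour, and Flt4, the VEGF-C receptor of lymphatic and sprouting endothelium, did not. Flt1 encodes VEGFR1, which binds VEGF-A and limits its action. Flt1 (ENSMUSG00000029648.13) lies on chromosome 5 at 147561604 to 147726011 of GRCm38, on the minus strand. It stood at 14.1, 17.4 and 16.05 CPM in vehicle tumours 1 to 3, 15.8, 17.3 and 22.2 CPM with anti-PD1, 19.9, 17.99 and 17.3 CPM with SN-38 and 25.1, 18.6 and 21.2 CPM with the combination. Anti-PD1 tumour 3 was second to combination tumour 1, so the antibody groups overlapped. The difference from vehicle was 0.45 ± 0.15 SE (edgeR adjusted p = 0.34). Kdr, the main signalling VEGF receptor, stood at 13.6, 16.6 and 15.6 CPM in vehicle tumours 1 to 3, 10.95, 13.0 and 23.1 CPM with anti-PD1, 11.9, 19.96 and 15.1 CPM with SN-38 and 20.2, 20.6 and 27.5 CPM with the combination, and differed from vehicle by 0.58 ± 0.27 SE. Both highest Kdr values came from tumour 3 of the antibody groups, whose leukocyte markers summed to 447 CPM with anti-PD1 and 475 CPM with the combination, the 2 highest sums of the 12; their part in the Kdr values was not tested. Flt4 stood at 8.68 ± 1.35 CPM with the combination and 9.22 ± 1.32 CPM with vehicle.

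In the angiopoietin and Tie group, Tie1 was lower with anti-PD1 than in the other groups. Tie1 (ENSMUSG00000033191.14) lies on chromosome 4 at 118471191 to 118490061 of GRCm38, on the minus strand. This orphan receptor, which modulates signals through Tek, stood at 9.61, 12.3 and 11.3 CPM in vehicle tumours 1 to 3, 8.53, 8.60 and 9.24 CPM with anti-PD1, 10.9, 12.5 and 9.12 CPM with SN-38 and 12.1, 14.2 and 10.8 CPM with the combination. All 3 anti-PD1 tumours lay below every vehicle and every combination tumour, and SN-38 tumour 3 lay among them. The combination differed from anti-PD1 by 0.49 ± 0.16 SE (edgeR adjusted p = 0.536) and from vehicle by 0.15 ± 0.16 SE. Tek stood at 2.27, 3.28 and 4.63 CPM in vehicle tumours 1 to 3, 1.87, 2.19 and 2.48 CPM with anti-PD1, 2.73, 3.80 and 2.73 CPM with SN-38 and 2.699, 2.96 and 3.19 CPM with the combination. Every combination tumour lay above every anti-PD1 tumour for Tek, but within the vehicle range. Angpt2, a Tek ligand released by activated endothelium, and Ptprb, the phosphatase that restrains Tek, differed from anti-PD1 by 0.24 ± 0.19 SE and 0.29 ± 0.19 SE.

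The 4 transcription factors are the ETS factor Erg and the SoxF trio. Sox18 was the one whose combination values cleared all other groups. Sox18 (ENSMUSG00000046470.5) lies on chromosome 2 at 181669836 to 181671640 of GRCm38, on the minus strand. It stood at 3.69, 5.31 and 5.17 CPM in vehicle tumours 1 to 3, 4.84, 4.45 and 5.25 CPM with anti-PD1, 5.52, 5.23 and 4.10 CPM with SN-38 and 6.24, 7.73 and 6.69 CPM with the combination. Its difference was 0.54 ± 0.19 SE from vehicle and 0.51 ± 0.19 SE from anti-PD1 (edgeR adjusted p = 0.342 and 0.569). Sox17, an arterial SoxF factor and the member with the fewest counts, stood at 0.756, 0.775 and 0.965 CPM in vehicle tumours 1 to 3, 0.807, 1.38 and 1.33 CPM with anti-PD1, 1.03, 1.86 and 0.683 CPM with SN-38 and 0.886, 1.57 and 1.20 CPM with the combination. Its groups overlapped, and SN-38 tumours held both the highest and the lowest value. With as few as 17 counts in a tumour, Sox17 can show only large differences. Erg and Sox7 differed from vehicle by 0.18 ± 0.24 SE and 0.11 ± 0.32 SE.

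Among surface and matrix-linked genes, Mmrn2 had the smallest p-value of all members against vehicle and against anti-PD1. It encodes multimerin 2, a matrix glycoprotein that endothelial cells secrete and that binds CLEC14A and CD93. Mmrn2 (ENSMUSG00000041445.9) lies on chromosome 14 at 34375465 to 34404287 of GRCm38, on the plus strand. It stood at 8.52, 8.49 and 9.22 CPM in vehicle tumours 1 to 3, 7.56, 7.83 and 9.49 CPM with anti-PD1, 8.43, 9.58 and 9.72 CPM with SN-38 and 13.6, 15.3 and 11.1 CPM with the combination. The 3 combination tumours lay above the other 9, among which the groups overlapped. Its difference was 0.61 ± 0.15 SE from vehicle, 0.68 ± 0.15 SE from anti-PD1 and 0.53 ± 0.15 SE from SN-38 (edgeR adjusted p = 0.296, 0.382 and 0.618). Leaving out any 1 tumour of the groups compared gave 0.50 to 0.72 against vehicle.

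Plvap, the member with the highest FPKM, also stood above vehicle and anti-PD1. Plvap (ENSMUSG00000034845.6) lies on chromosome 8 at 71497765 to 71511752 of GRCm38, on the minus strand. It stood at 27.8, 34.03 and 33.3 CPM in vehicle tumours 1 to 3, 30.02, 30.2 and 32.0 CPM with anti-PD1, 38.6, 31.8 and 30.3 CPM with SN-38 and 39.5, 46.2 and 35.8 CPM with the combination. Combination values lay above all vehicle and anti-PD1 values, and SN-38 tumour 1 lay among them. It differed by 0.35 ± 0.12 SE from vehicle and 0.40 ± 0.12 SE from anti-PD1 (edgeR adjusted p = 0.342 and 0.51). The guidance receptor gene Robo4 and the secreted factor gene Egfl7 differed from anti-PD1 by 0.43 ± 0.23 SE and 0.38 ± 0.16 SE. Eng, Ecscr and Clec14a were nearer to their vehicle levels, at -0.015 ± 0.16 SE, 0.029 ± 0.25 SE and 0.13 ± 0.35 SE. Ecscr, Eng and Egfl7 are among 7 members that share an exon with another annotated gene, the others being Cd34, Sox17, Nos3 and Ramp2, and since the strand setting of the counting was not given, their values may hold reads of that neighbour.

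Vwf, the clotting factor that endothelium and platelets store, stood at 9.91, 9.63 and 9.30 CPM in vehicle tumours 1 to 3, 13.8, 8.44 and 16.4 CPM with anti-PD1, 15.7, 10.7 and 9.36 CPM with SN-38 and 18.5, 11.52 and 17.2 CPM with the combination. Its combination values all lay above the vehicle values (0.71 ± 0.27 SE), and so did anti-PD1 tumours 1 and 3 and SN-38 tumours 1 and 2. Of 8 platelet and megakaryocyte markers, which summed to 5.39 to 14.1 CPM per tumour, Treml1 had 0 counts in all 12 tumours, and Gp1bb, Gp6 and Gp9 had 1, 1 and 2 counts over the 12 together. The other 4 were detected, Itga2b at 3.05 to 9.03 CPM, Pf4 at 0.637 to 3.61 CPM, Gp1ba at 0.324 to 2.98 CPM and Ppbp at 0.0366 to 5.45 CPM. Their part in the Vwf values was not tested. The other members with vessel tone and signalling roles, Nos3, the sphingosine-1-phosphate receptor gene S1pr1 and the adrenomedullin co-receptor gene Ramp2, differed from vehicle by 0.0096 ± 0.17 SE, 0.25 ± 0.20 SE and 0.061 ± 0.20 SE.

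Esm1, or endocan, a proteoglycan released by tip cells, showed the widest spread. Esm1 (ENSMUSG00000042379.8) lies on chromosome 13 at 113209659 to 113218098 of GRCm38, on the plus strand. It stood at 0.839, 1.07 and 0.849 CPM in vehicle tumours 1 to 3, 0.976, 1.23 and 1.47 CPM with anti-PD1, 1.18, 1.097 and 1.81 CPM with SN-38 and 2.09, 8.24 and 1.78 CPM with the combination. All 3 combination tumours lay above every vehicle and anti-PD1 tumour, but 1 of them, tumour 2, lay far above the rest. The log2 difference was 2.12 ± 0.54 SE from vehicle and 1.70 ± 0.53 SE from anti-PD1 (edgeR adjusted p = 0.296 and 0.51), and 1.07 and 0.65 without combination tumour 2. Apln, the apelin ligand gene that hypoxia and sprouting induce, stood at 8.02, 8.71 and 9.57 CPM in vehicle tumours 1 to 3, 8.92, 6.14 and 5.32 CPM with anti-PD1, 11.1, 6.11 and 9.40 CPM with SN-38 and 9.67, 20.7 and 6.14 CPM with the combination. Combination tumour 2 was again highest and combination tumour 3 among the lowest, so its groups overlapped (0.47 ± 0.39 SE from vehicle). Aplnr, its receptor gene, was highest in SN-38 tumour 2 at 8.92 CPM and lowest in anti-PD1 tumour 1 at 2.55 CPM.

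**Figure D4:**
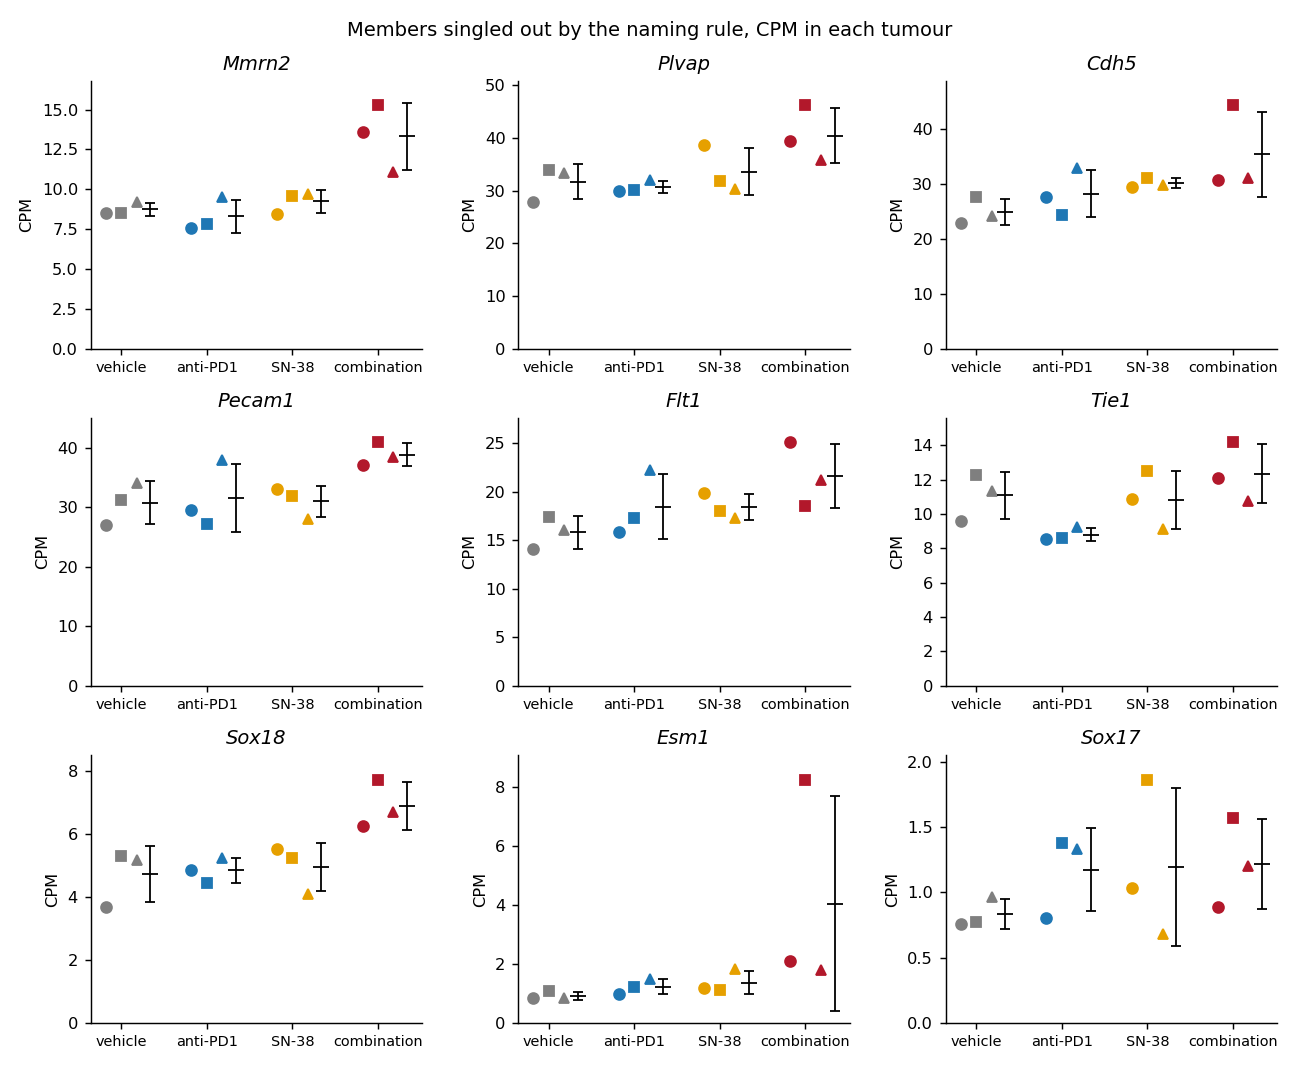
CPM of 9 members in each tumour by group (circle, square and triangle for tumours 1, 2 and 3), with the mean and SD of 3 tumours in black. Mmrn2 and Sox18 show all combination tumours above the other 9; for Esm1 the combination mean rests largely on tumour 2 at 8.24 CPM.

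RefSeq promoter windows on GRCm38.p6, running from 250 bases before to 50 after the annotated start, matched 15 members, with 19 windows in all. The windows of Flt1, Tie1 and Esm1 are shown because these are the members described above by the naming rule for which a window was found. Capitals mark AGGAAG or CGGAAG read on either strand, longer forms of the core GGAA bound by ETS factors such as Erg. Other occurrences of GGAA were neither marked nor counted. Flt1 is chr5:147725962-147726261 and Tie1 chr4:118489800-118490099, both on the minus strand, and Esm1 is chr13:113209409-113209708 on the plus strand, each written 5′ to 3′ along the gene.
Flt1: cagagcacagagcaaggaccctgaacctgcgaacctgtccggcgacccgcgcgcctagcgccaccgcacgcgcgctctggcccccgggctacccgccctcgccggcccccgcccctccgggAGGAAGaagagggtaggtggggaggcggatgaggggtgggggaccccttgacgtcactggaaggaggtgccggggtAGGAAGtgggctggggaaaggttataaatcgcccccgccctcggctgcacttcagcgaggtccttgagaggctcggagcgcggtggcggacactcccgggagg
Tie1: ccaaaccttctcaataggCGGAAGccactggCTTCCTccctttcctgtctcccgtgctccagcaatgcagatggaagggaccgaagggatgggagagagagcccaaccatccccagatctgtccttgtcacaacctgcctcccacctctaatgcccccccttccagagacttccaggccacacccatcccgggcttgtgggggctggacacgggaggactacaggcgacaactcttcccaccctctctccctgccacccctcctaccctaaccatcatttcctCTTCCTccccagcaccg
Esm1: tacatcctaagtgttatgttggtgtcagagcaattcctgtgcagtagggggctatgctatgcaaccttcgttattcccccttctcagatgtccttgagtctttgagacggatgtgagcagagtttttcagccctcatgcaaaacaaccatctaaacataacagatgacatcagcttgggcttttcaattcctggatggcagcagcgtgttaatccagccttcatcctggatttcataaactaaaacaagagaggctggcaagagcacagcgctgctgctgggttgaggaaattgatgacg
Flt1 held 2 matches, starting 129 and 53 bases before the start. Tie1 held 3 matches, 232 and 219 bases before the start and at base 34 after it. Esm1 held 0 of these longer forms, though the letters GGAA occur in its window. Of the 19 windows of members, 10 (52.6%) held a match, beside 46.5% of all 32851 windows of that length. The SOX letters ACAATG or ACAAAG, on either strand, occurred in 5 of the 19 (26.3%) and in 28.6% of all windows.

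Genes of the vascular programme outside the members were taken from lists drawn up by role, and none of their genes passed with edgeR in either comparison of the combination. Of 34 other endothelial genes, 30 had higher means than vehicle with a median of 0.23, and 28 had higher means than anti-PD1 with a median of 0.20. With SN-38 alone 29 of them had higher means than vehicle, and their summed CPM was 706 ± 30.2 with vehicle, 740.1 ± 53.2 with anti-PD1, 779.8 ± 49.8 with SN-38 and 770.5 ± 34.6 with the combination (mean ± SD, n = 3 each). That sum was highest with SN-38 alone, whose tumours overlapped those of the combination. The smallest p-values belonged to Gimap4, a GTPase gene also active in lymphocytes (0.83 ± 0.26 SE from vehicle), the signalling gene Rasgrp3 (0.49 ± 0.16 SE) and the scavenger receptor gene Stab1, shared with macrophages (0.57 ± 0.18 SE from anti-PD1). Tip-cell genes were higher in 7 of 10 cases against vehicle and 9 of 10 against anti-PD1, with medians of 0.32 and 0.50. Col4a1, a basement membrane collagen also made by other cells, stood at 184, 205 and 226 CPM in vehicle tumours 1 to 3, 223, 183 and 222 CPM with anti-PD1, 285, 299 and 282 CPM with SN-38 and 301, 552 and 259 CPM with the combination. Every tumour given SN-38 lay above every tumour without it, and Col4a1 differed from vehicle by 0.86 ± 0.23 SE and Col4a2 by 0.85 ± 0.22 SE with the combination (edgeR adjusted p = 0.296 for each).

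Angiogenic ligands and co-receptors were higher in 11 of 15 cases against vehicle (median 0.32) and 10 of 15 against anti-PD1 (median 0.34). Nrp2, a semaphorin and VEGF co-receptor, stood at 174, 178 and 161 CPM in vehicle tumours 1 to 3, 137, 154 and 159 CPM with anti-PD1, 184, 158 and 161 CPM with SN-38 and 214, 229 and 198 CPM with the combination. Combination values cleared all other groups, with a difference of 0.51 ± 0.093 SE from anti-PD1 (edgeR adjusted p = 0.341). Vegfa itself stood at 88.8, 126 and 61.3 CPM in vehicle tumours 1 to 3, 86.8, 68.3 and 58.1 CPM with anti-PD1, 171, 52.3 and 141 CPM with SN-38 and 205, 151 and 57.4 CPM with the combination. The groups overlapped. Combination tumour 3, with the highest Kdr, had one of the lowest Vegfa values. Hypoxia-induced genes, Vegfa included, were higher in 9 of 12 cases against vehicle with a median of 0.10.

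Lists named for vessel subtypes and vessel-linked roles differed in sign. Their genes need not be expressed by vessels alone, and which cells of the bulk tissue gave these values was not tested. Venous and capillary genes were higher than vehicle in 7 of 10 cases (median 0.25), with the venular chemokine receptor gene Ackr1 at 1.46 ± 0.60 SE. Ackr1 held few counts, at 0.0839 to 0.386 CPM with vehicle and 0.377 to 1.01 CPM with the combination, and these groups overlapped. Vascular Notch genes were higher in 8 of 10 (median 0.15), with the endothelial receptor gene Notch4 at 0.82 ± 0.25 SE. Hes1 of that list had a lower mean, at 63.3 CPM with the combination and 101 CPM with vehicle. Its combination values of 41.7 to 96.2 CPM overlapped the vehicle values of 81.4 to 117 CPM. This list summed to 1062 to 1462 CPM per tumour, beside 299 to 461 CPM for the 31 members. Arterial genes were lower in 6 of 8 (median -0.34), and lymphatic endothelial genes in 7 of 8 (median -0.66). Prox1, the master factor of lymphatic identity, stood at 0.714, 1.51 and 1.77 CPM in vehicle tumours 1 to 3, 1.40, 0.499 and 0.791 CPM with anti-PD1, 1.105, 0.585 and 0.924 CPM with SN-38 and 0.765, 0.139 and 0.72 CPM with the combination. Prox1 was lowest in combination tumour 2, which held the highest value of 15 of the 31 members. That value rests on few counts, in the tumour with the lowest total count, 21088288. Adhesion molecules for leukocytes were higher in 5 of 8, Icam1 by 0.56 ± 0.29 SE. Cd99l2 of that list had a lower mean, at 62.8 ± 4.79 CPM with the combination and 69.4 ± 6.69 CPM with vehicle (SD), and these groups overlapped. Genes listed as mural, for the pericytes and muscle cells around vessels, were split, with 7 of 13 higher and a median of 0.0022. The channel subunit gene Abcc9 was among the higher ones at 0.56 ± 0.24 SE. Its combination values of 5.21 to 11.7 CPM overlapped the vehicle values of 5.31 to 5.75 CPM, and its mean was highest with SN-38 alone at 9.05 CPM. Rgs5 had a mean of 32.4 CPM with the combination and 32.4 CPM with vehicle.

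Markers of other cell types differed in level between the same groups. Summed over 8 fibroblast markers the level was 24170 to 32369 CPM with vehicle, 6396 to 32332 CPM with anti-PD1, 9161 to 65507 CPM with SN-38 and 6390 to 18374 CPM with the combination, and 8 of 8 had lower means with the combination than with vehicle. Skeletal muscle markers summed to 172 to 333 CPM with vehicle and 21.7 to 181 CPM with the combination, and squamous epithelial markers to 13551 to 16411 and 7670 to 15705 CPM. Leukocyte markers summed to 191 to 226 CPM with vehicle, 197 to 447 CPM with anti-PD1, 162 to 255 CPM with SN-38 and 222 to 475 CPM with the combination, with 7 of 7 tested genes higher than vehicle. The lowest sums of fibroblast, muscle and epithelial markers within the combination group all belonged to tumour 2. The part of these shifts in the values of the vessel genes was not tested.

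**Figure D5:**
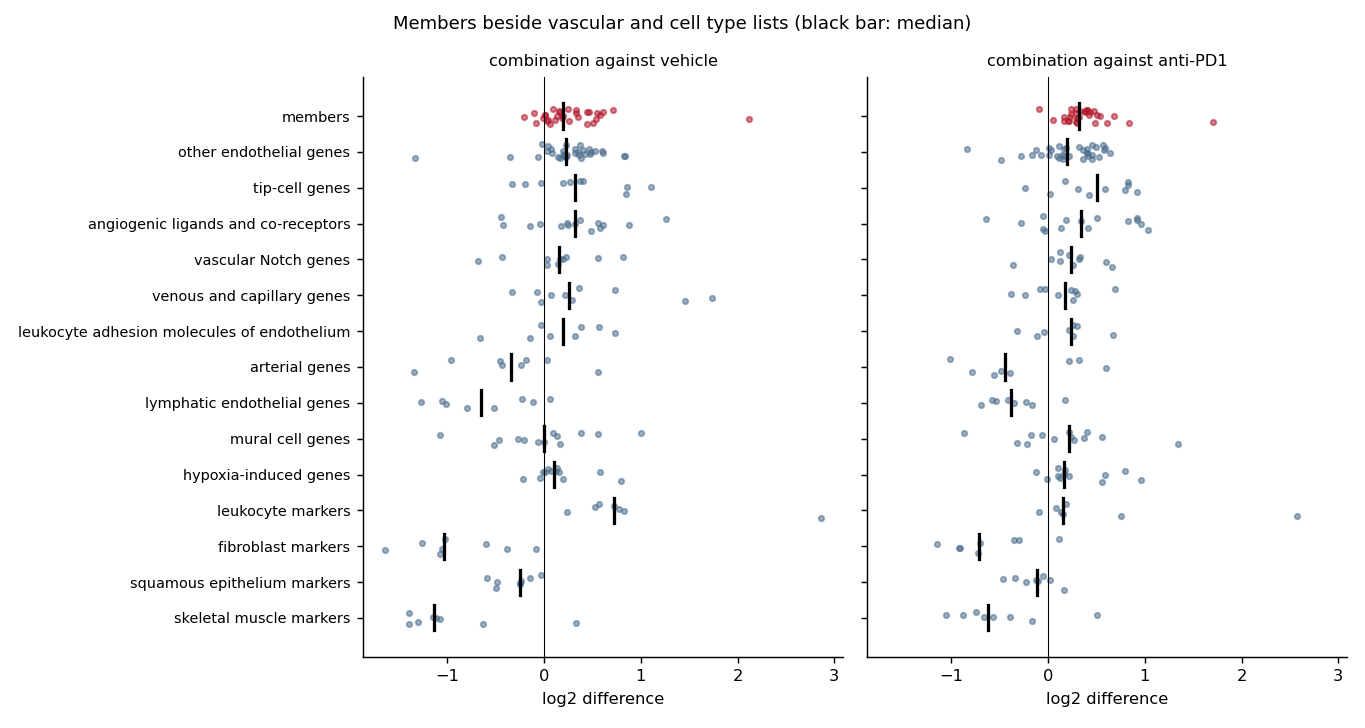
Log2 difference of each gene in the combination against vehicle (left) and against anti-PD1 (right), for the 31 members (red), other vascular lists and markers of other cell types (blue), with list medians as black bars. The member median is 0.19 on the left and 0.32 on the right, while lymphatic and fibroblast medians lie below 0 at -0.66 and -1.04 on the left.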

How the data were processed

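Each tumour gave 1 stranded mRNA library, per the labels' protocols. The submitters' processing notes name cutadapt 2.4, STAR 2.7.2a and the genome GRCm38. How reads were counted, with which strand setting and on which annotation, is not given in the sources used here. Whole-number counts per Ensembl gene, not normalized, were deposited by the authors. Identifiers were matched to GENCODE release M21 (54409 of 54446).

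Columns were assigned by the sample code in each label. The chi-square per degree of freedom between tumours of a group was at least 11.8 over genes with 20 or more counts, so all 12 were kept. Low genes were removed with filterByExpr, leaving 16833 genes, and TMM factors ran from 0.97 to 1.03. Genes were tested by quasi-likelihood in edgeR 4.0.16 under R 4.3.3, with group means over all 12 tumours and Benjamini-Hochberg adjustment over all genes at 0.05, tested on simulated data. Log2 CPM used a prior count of 2. Counts of higher or lower means in a comparison were taken from the sign of the fitted log2 difference. Alternatives were DESeq2 1.42.0, limma voom (limma 3.58.1), other scaling, no filter, only the groups compared, a replicate block and leaving out each tumour. Members and lists were chosen with earlier results of these data known. Values in every tumour are given for the 5 members with the smallest p for SN-38 averaged over antibody status, for the combination against vehicle and for the combination against anti-PD1, for Pecam1, Cdh5 and the member with the fewest counts. Kdr, Tek, Vwf and Apln were added after their values were seen. From each other list the rule took the 2 smallest p-values in each comparison of the combination with vehicle and anti-PD1. Only some of the genes so taken are named above, and the rule does not settle which. The list genes named are therefore examples and need not represent their lists.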

Additional observations from a re-analysis of the deposited data

How the results depend on the processing

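With 3 tumours a group and as few as 17 counts for a member, small differences were not detectable. Members called were 0 in all 8 comparisons with edgeR, limma voom, other scaling, no low-count filter and the replicate block. They were also 0 in the 5 pairwise comparisons with only the groups compared, and with each tumour left out of the comparisons that use its group. Over all genes, each of these settings called at most 3 in any comparison, so 0 members called is close to the share of all genes. DESeq2 called 2 members for the combination against vehicle and 1 against anti-PD1, among 173 and 76 of all genes. Members at an unadjusted p under 0.05 and higher for the combination against anti-PD1 were 5 with only those groups in the fit. With 1 tumour left out this count ran from 4 to 11, from 4 to 8 against vehicle and from 3 to 8 for SN-38 averaged over antibody status. The median member difference then ran from -0.043 to 0.088 for SN-38 alone, -0.18 to -0.036 for anti-PD1 alone, 0.034 to 0.12 for the antibody averaged over SN-38 status and 0.23 to 0.44 for the interaction. For the combination it ran from 0.13 to 0.31 against vehicle and 0.24 to 0.44 against anti-PD1. The score difference of anti-PD1 minus vehicle, -0.10 as a mean of members, was -0.31 as their median.

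The labels do not say whether replicate numbers pair the tumours. Same-numbered tumours of different groups had deviations correlated from -0.47 to 0.63, over 0.1 in 4 of 18 pairs. Of the 12 tumours, 4 correlated best with their own number. With 3 tumours a group, whose deviations are not independent, these values cannot decide whether the numbers pair tumours. With the replicate block, members at an unadjusted p under 0.05 and higher were 9 against vehicle and 9 against anti-PD1, and 0 were called.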

Other observations

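Blood vessel members varied together between tumours to unequal degrees. Over the 12 tumours the median Pearson correlation of log2 CPM between 2 members was 0.37, and 0.27 for deviations from group means, with 404 of 465 pairs above 0 in the first. These are descriptions, since the members share libraries and were listed as one cell type. Set against the mean of the other 30, Plvap, Sox18, Pecam1 and Tie1 followed the set most closely (0.92, 0.90, 0.88 and 0.85). Cldn5, Clec14a, Ecscr and Flt4 followed it least (0.017, 0.14, 0.15 and 0.22).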
